A study of Mus musculus with 289 samples.

Results

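The nuclear genes for the 5 complexes of mitochondrial oxidative phosphorylation (OXPHOS) were followed through single astrocytes of the adult mouse cortex. A gene was taken by its symbol: Ndufa, Ndufb, Ndufc, Ndufs and Ndufv genes (complex I), Sdha to Sdhd (complex II), Uqcr genes and Cyc1 (complex III), Cox4 to Cox8 genes (complex IV) and Atp5 genes (complex V). Assembly factors named Ndufaf were left out. Of 100 genes that fit these names, 94 had a row in all 5 count tables and make up the set, out of 18523 gene rows shared by the tables. They comprise 42 genes of complex I, 4 of complex II, 11 of complex III, 15 of complex IV and 22 of complex V. Protein-coding genes are 81 of the 94, and the other 13 are processed pseudogenes and a long non-coding RNA.

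In the study, adult transgenic mice expressing Cas9 received an astrocyte-directed lentivirus (Mok-LV) in the cerebral cortex, with guide RNAs (gRNAs) against the transcription factors Sox9, Trps1 or both (called dual gRNA here), or a control gRNA. Cells were drawn one by one into an electrophysiology pipette, at day 7 or day 21 per the design text, and made into Smart-seq2 libraries, and in-slice controls are libraries of the pipette in the slice with no cell taken. The first batch had 31 no gRNA cells beside 10 of control and 4 of dual gRNA; its day labels ran from 8 to 16 over the control gRNA cells and from 17 to 20 over the dual gRNA cells, nearly all different, and were not used. The second had 15 cells with control gRNA, 8 at day 7 and 7 at day 21, and 8 with dual gRNA at day 21. The third had day 7 cells, 21 with Sox9 gRNA and 14 with dual gRNA, beside 6 with no gRNA. In the fourth, day 21 cells with counts carried control (15 of 17 labelled), Sox9 (16 of 20) or dual gRNA (13 of 14). Of 31 day 7 cells labelled Trps1 gRNA, 15 had counts. This batch also had cells labelled Trps1 gRNA at day 21, and none of them had counts. In the fifth, day 21 cells carried Sox9 (21) or Trps1 gRNA (30), beside 23 with no gRNA. The mice are described as Cas9-expressing throughout, the no gRNA cells carry the day label Adult, and the labels do not say whether their mice were injected. No label names an animal, so each gRNA, day and batch forms 1 pool of cells with no replicate, and no test was made between pools.

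Oxidative phosphorylation couples the oxidation of NADH and succinate to the making of ATP in the inner mitochondrial membrane. Complex I (NADH dehydrogenase) and complex II (succinate dehydrogenase) pass electrons to ubiquinone, complex III hands them to cytochrome c, complex IV (cytochrome c oxidase) gives them to oxygen, and complex V (ATP synthase) uses the proton gradient that complexes I, III and IV build. Most subunits are encoded in the nucleus, and the core of complexes I, III, IV and V also holds subunits encoded by mitochondrial DNA. Astrocytes are known for a strong glycolytic output of lactate, and they carry a working respiratory chain in their fine processes and end feet as well.

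RefSeq promoters (GRCm38.p6, 250 bases before to 50 after a gene's start) were found for 65 of the 94 genes. They were searched on both strands for 4 short motifs that background knowledge ties to promoters of this family: GCGCATGC (core of the NRF1 motif), CCGGAAG (bound by ETS factors such as GABPA), AAGATGGC (YY1) and TGACGTCA (the cyclic AMP response element, CRE). The CCGGAAG motif was in the promoters of 16 of the 65 genes (24.6%) and in 9.93% of all 27025 genes with a promoter. GCGCATGC was in 10 of 65 (15.4%, against 3.05% of all genes), AAGATGGC in 9 (13.8%, against 3.19%) and TGACGTCA in 4 (6.15%, against 2.03%). At least 1 of the 4 motifs was in 32 of the 65 (49.2%) and in 16.4% of all genes with a promoter, and a match describes letters only. The 60 bases before the start are shown for 5 genes, to let the reader see the motifs in place at genes of different level and complex, with the motif in capitals on either strand.
Cox6a1 (complex IV, chr5:115348959-115349018, minus strand, CCGGAAG reversed): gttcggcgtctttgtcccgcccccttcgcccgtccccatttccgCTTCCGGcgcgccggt
Uqcrh (complex III, chr4:116075071-116075130, minus strand, CCGGAAG reversed): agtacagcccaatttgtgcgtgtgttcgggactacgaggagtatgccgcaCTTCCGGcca
Sdhd (complex II, chr9:50603850-50603909, minus strand, CCGGAAG reversed): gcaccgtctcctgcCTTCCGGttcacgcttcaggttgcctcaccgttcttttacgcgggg
Ndufa11 (complex I, chr17:56717702-56717761, plus strand, GCGCATGC on both strands, overlapping): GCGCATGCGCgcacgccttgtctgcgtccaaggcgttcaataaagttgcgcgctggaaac
Ndufb2 (complex I, chr6:39592505-39592564, plus strand, TGACGTCA): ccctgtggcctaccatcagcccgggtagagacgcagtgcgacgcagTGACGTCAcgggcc
The last 23 bases shown for Cox6a1 and the last base for Uqcrh lie inside the gene as GENCODE draws it (chr5:115345642-115348981 and chr4:116066965-116075071), and the other stretches lie outside it.

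Astrocyte libraries held 15959 to 4656612 reads in genes, with a median of 1094502. All 18 astrocyte markers listed were read in each of the 16 astrocyte pools, with summed levels of 8353 CPM (counts per 1000000 gene reads of the pool) in batch 4 dual gRNA cells to 43337 in batch 1 dual gRNA cells. Markers of microglia and macrophages moved with the labels. The 14 listed summed to 327, 237 and 275 CPM in the no gRNA pools of batches 1, 3 and 5, and to between 5767 and 17693 CPM in the 13 other astrocyte pools. In the batch 3 no gRNA cells 7 of the 14 were at 0, including C1qb, Cx3cr1 and Tmem119. Their part in the OXPHOS values was not tested. Pooled transcripts of the targeted genes were lower in some targeted pools and higher in others. Sox9 stood at 1303 CPM with Sox9 gRNA and 1492 with dual gRNA against 382 with no gRNA in batch 3, at 189 and 133 against 177 with control gRNA in batch 4, and at 233 against 309 with no gRNA in batch 5. With dual against control gRNA it was at 1860 against 209 CPM in batch 1 and 905 against 491 in batch 2. Trps1 stood at 57.6 CPM with Trps1 gRNA against 91.9 with no gRNA in batch 5. With dual gRNA it was at 112 against 4.61 in batch 1, 19.4 against 107 in batch 2, 294 against 109 in batch 3 and 16.7 against 3.35 in batch 4, with the same references. Cell medians of Sox9 ran opposite to the pools for dual gRNA in batch 2 (162 against 510 CPM) and batch 3 (207 against 254). In batch 3, 1 dual gRNA cell stood at 14893 CPM. They kept the pooled direction for dual gRNA in batch 1 (1862 against 145) and Sox9 gRNA in batch 3 (412 against 254). For Trps1 with dual gRNA they were 27.4 against 22.4 in batch 3, with a highest cell of 3454, and 0 in both pools of batch 4. Transcript levels thus do not check the guide labels, and pools are called by their labels throughout. Members can also be near-identical copies of each other or of pseudogenes, and the sources used here do not give how the counting split such reads.

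A pair of libraries within each of 2 pools were near copies of each other. Among 3081 pairs of libraries in batch 5, 2 no gRNA libraries had log2(CPM + 1) values that correlated at r = 0.989 across genes, and the next pair stood at 0.649. These 2 libraries held 15807 and 14894 CPM of the 94 genes and shared 78 of the 81 and 80 members read. In batch 4, 2 Trps1 gRNA libraries of day 7 correlated at 0.993, with 19544 and 19924 CPM, and the next pair at 0.615. Read counts of the 4 libraries differed by more than counting noise within each pair, with a chi-square per degree of freedom of 1.72 in batch 5 and 3.23 in batch 4. With the near-identical batch 5 library counted once, the log2 ratios of the summed level against no gRNA were -0.24 for Sox9 gRNA and 0.39 for Trps1 gRNA, against -0.25 and 0.38 with both. The batch 4 pair enters no comparison.

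Reads of the 94 genes were spread over every complex and nearly every cell. Of the 81 protein-coding members, 76 had a read in at least 50% of the 242 astrocyte libraries, and 4 had a read in fewer than 20%. The 13 members that do not code for protein were read in as many cells only in 3 cases. Level is given below as CPM per kilobase of the gene's merged exons, taken as the median over 16 astrocyte pools, so that genes of different length can be set side by side. Merged exons include every annotated transcript, so a gene with long rare exons reads low on this scale.

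Complex IV subunits headed the order. Cox8a, a small subunit of cytochrome c oxidase, stood first with a median of 757 CPM per kb over pools (571 to 1174), and it was first or second in every pool. Cox6a1, the widespread form of subunit VIa, followed with 518 (201 to 1210), then Cox6b1 with 427 (214 to 882), a subunit facing the intermembrane space. Cox4i1, the main form of subunit IV, had 421 CPM per kb (104 to 821) and was read in 227 of 242 cells. Uqcr11, a small subunit of complex III, had 355 (158 to 752), and Ndufa2, an accessory subunit of complex I, 351 (92.2 to 998). The ranges of these 6 genes over pools overlap, so their order beyond Cox8a is not fixed by these data. Atp5b, the catalytic beta subunit of ATP synthase, was read in the most cells, 231 of 242, at 229 CPM per kb (105 to 341), where Atp5a1, the alpha subunit, had 125 (16.8 to 237).

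**Figure D1:**
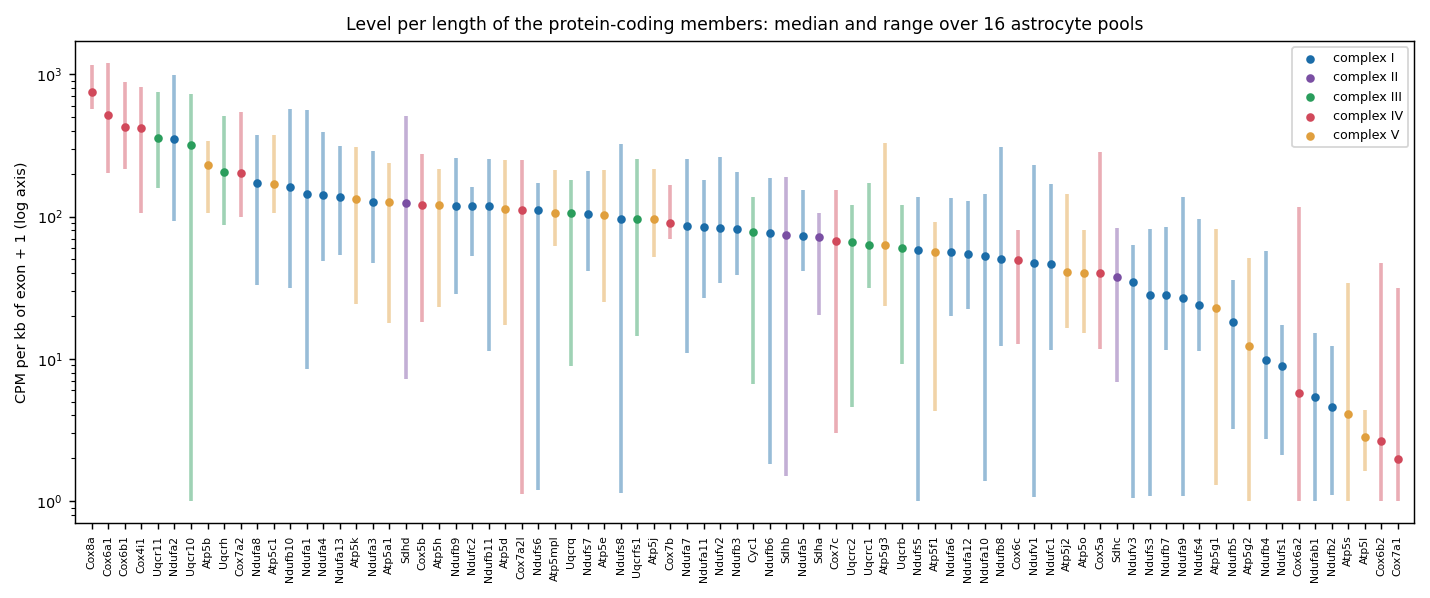
Level of 80 of the 81 protein-coding members as CPM per kb of merged exons plus 1, on a log axis, with points at the median and lines from the lowest to the highest of 16 astrocyte pools, coloured by complex. Cox8a stands first at a median of 757, Cox7a1 last, and a line that reaches 1 marks a pool in which the gene was at or near 0.

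At the other end were pseudogenes, isoforms best known from muscle or testis, and some widely read subunits. The 5 lowest were Atp5l-ps1, Atp5c1-ps, Atp5l-ps2, Ndufa11b and Atp5k-ps2, all with medians under 1 CPM per kb. Cox7a1, the heart and muscle form of subunit VIIa, had a read in 15 of 242 cells and 0.963 CPM per kb, whereas Cox7a2, its widespread counterpart, had 203 CPM per kb and a read in 201 cells. Cox6a2, the muscle form of subunit VIa, was read in 33 cells at 4.78 CPM per kb, against 213 cells for Cox6a1. Cox6b2, the testis form of subunit VIb, was read in 21 cells. The hypoxia-linked isoforms lie outside the set because a table lacked them. Cox4i2 was read in 15 of 219 cells and reached 35.1 CPM in batch 4 dual gRNA cells, and Ndufa4l2 was read in 2 of 119 cells. Genes for the c subunit ring of ATP synthase, which encode the same mature protein, differed in level: Atp5g3 had 62.1 CPM per kb (22.4 to 327), Atp5g1 21.7 (0.299 to 80.4) and Atp5g2 11.2 (0 to 50.2). Cox8b, the muscle form of subunit VIII, was read in 4 of 142 cells. Atp5l, a membrane subunit of ATP synthase with listed pseudogene copies, had 1.81 CPM per kb although 159 cells had a read of it. Ndufb2 and Ndufab1 of complex I had 3.55 and 4.40 CPM per kb, below Cox6a2, with reads in 145 and 137 of 242 cells. Their merged exons span 5628 and 6883 bases, which lowers a level given per length.

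Other subunits listed for naming lay across the order, from Ndufa4 near the upper end to Ndufs1 near the lower. In complex I, Ndufs7 had 104 CPM per kb (40.6 to 209), Ndufv1 46.5 (0.0698 to 232) and Ndufs1 7.95 (1.11 to 16.2). Ndufa4, first assigned to complex I and later found in complex IV, had 141 (47.8 to 392). In complex II, the flavin-bearing Sdha had 70.6 CPM per kb (19.5 to 104), the iron-sulfur subunit Sdhb 73.6 (0.492 to 189), and the membrane anchors Sdhc and Sdhd 36.3 (5.88 to 82.3) and 124 (6.27 to 511). In complex III, cytochrome c1 (Cyc1) had 76.4 (5.63 to 137), the core protein Uqcrc1 62.2 (30.4 to 170) and the Rieske protein Uqcrfs1 95.2 (13.5 to 252). Cox5a of complex IV had 38.9 (10.8 to 283). All these ranges over pools overlap with those of their neighbours in the order. The median over protein-coding genes was 76.0 CPM per kb in complex I (37 genes), 72.1 in complex II (4), 95.2 in complex III (9), 100.3 in complex IV (14) and 94.8 in complex V (17).

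Shares of the complexes in the members' reads varied over the astrocyte pools. Complex I held 26.5% to 41.5%, complex V 20.4% to 34.4%, complex IV 18.3% to 28%, complex III 7.93% to 16.3% and complex II, with its 4 genes, 2.67% to 9.74%. The highest share of complex V and a low share of complex II, 3.01%, were both in the batch 3 no gRNA cells. Complex I stood highest in batch 1 dual gRNA cells, where a single cell of 4 gave 44.5% of all member reads.

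**Figure D2:**
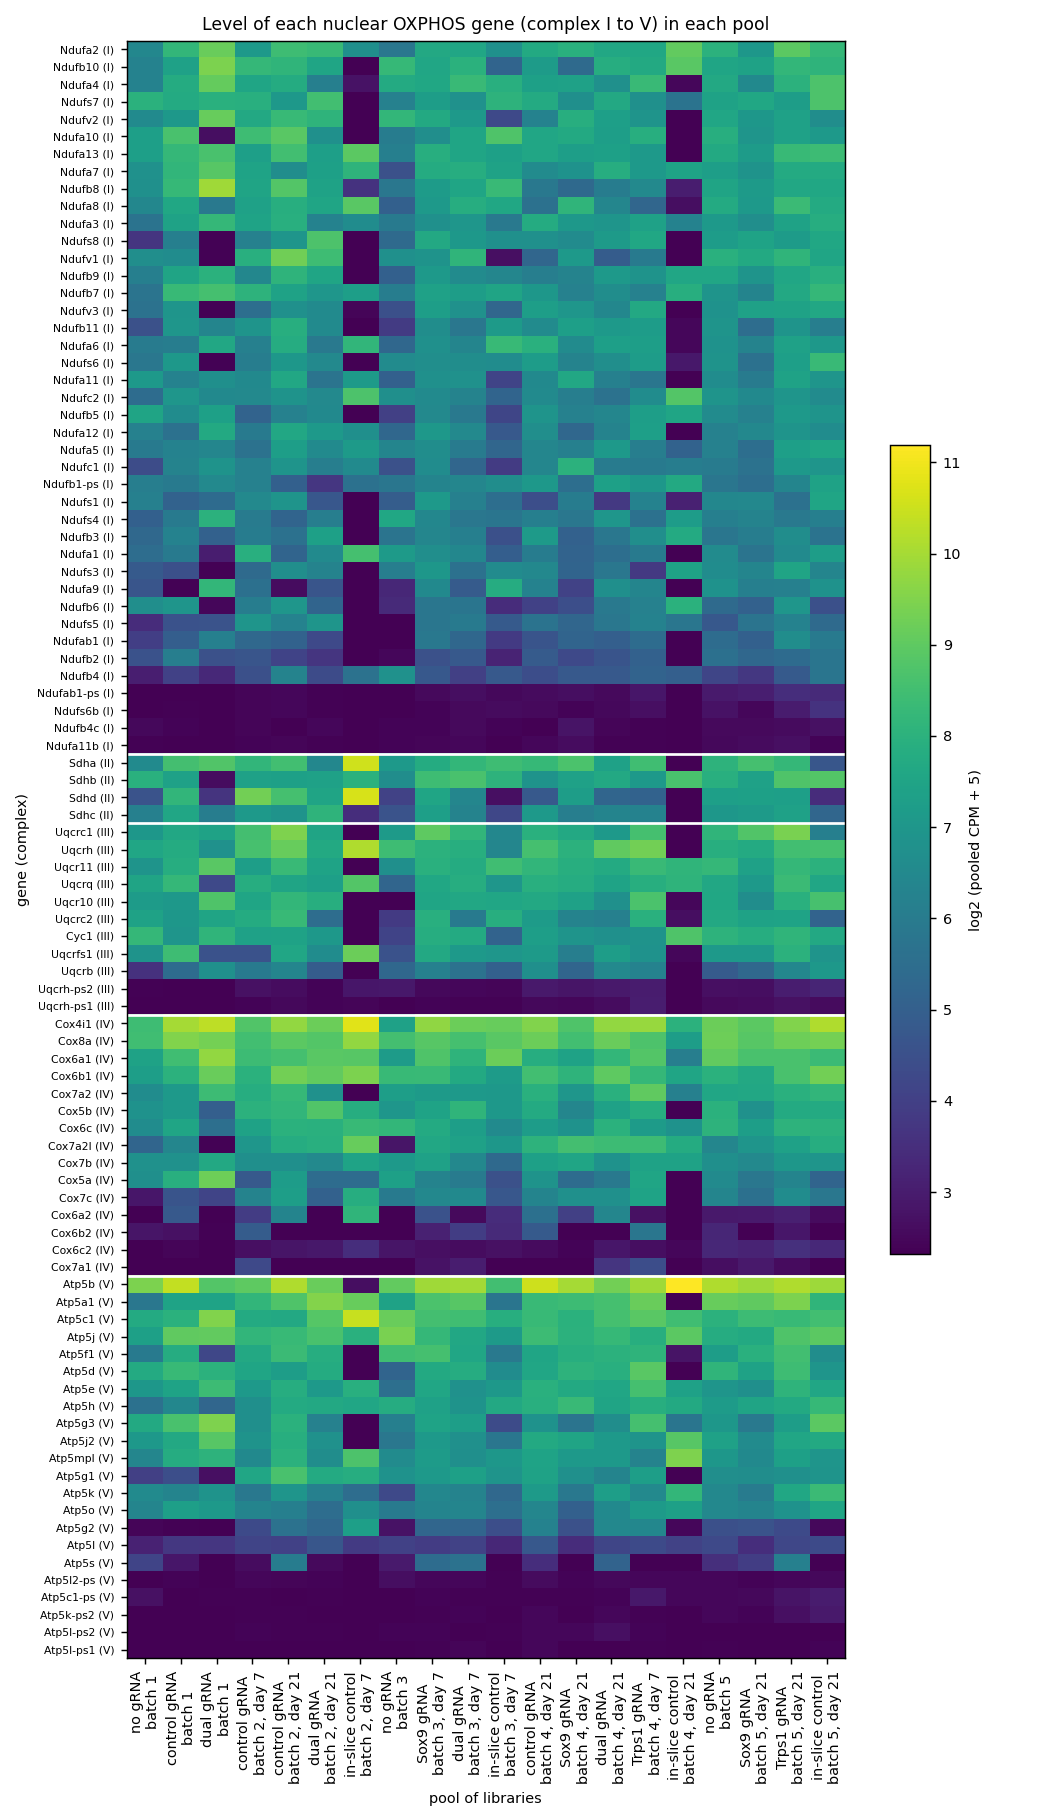
Pooled level of 93 of the 94 genes, as log2 of CPM plus 5, in 20 pools: rows are genes with their complex in brackets, ordered by median level within a complex and parted by white lines, and columns are pools. Cox4i1, Cox8a and Atp5b are bright in nearly every column, pseudogenes are dark, and the in-slice controls of batches 2 and 4, with 1 and 2 libraries, show many genes at 0.

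The summed level of the 94 genes ran from 8093 CPM (95% Poisson interval 8062 to 8124) in batch 1 no gRNA cells to 19154 CPM (19084 to 19225) in batch 2 control gRNA cells of day 21. These intervals cover counting error only, are far narrower than the spread between cells, and reads without molecular identifiers are not independent molecules. No gRNA cells were lowest in batch 1 (8093) and batch 3 (8683), but not in batch 5 (13773 CPM against 11595 in Sox9 gRNA cells). In-slice controls reached levels like those of cells: 17934 CPM in the 1 library of batch 2, 6699 to 14407 in the 4 of batch 3, 4812 and 19582 in the 2 of batch 4, and 12071 to 22088 in the 5 of batch 5. The summed level of libraries with no cell taken thus lay within the range of the cells, and the part of RNA from the slice in the cells' values was not tested. CPM is a share of reads, so these values do not give the amount of RNA in a library. Astrocyte markers were at 1936 to 10392 CPM in the in-slice pools, against 8353 to 43337 in the astrocyte pools.

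**Figure D3:**
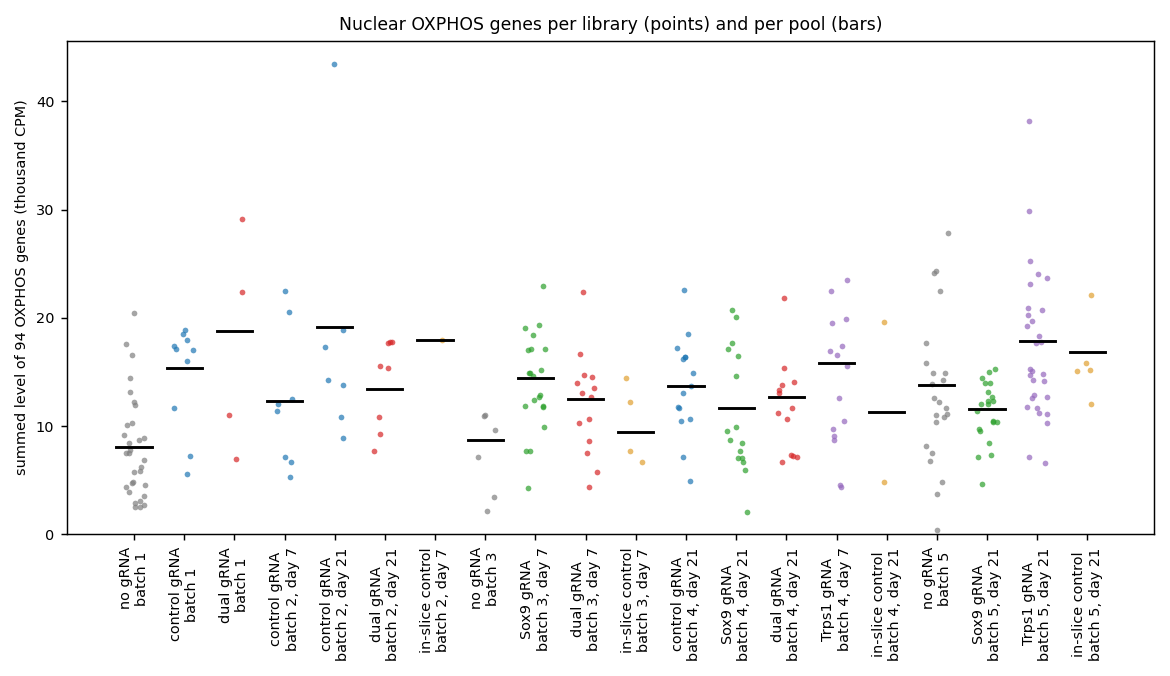
Summed level of the 94 genes in each library (points) and pool (bars), in units of 1000 CPM, coloured by gRNA label, with pools in order of batch. Pools overlap widely within each batch, the highest library (43428 CPM) is a batch 2 control gRNA cell of day 21, and in-slice controls fall among the cells.

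For the comparisons, a gene was counted as higher or lower when the log2 ratio of pooled CPM, with 5 added to each pool, reached 1 in size, among genes with a mean of 5 CPM or more over both pools. Beside each count stands the share of all genes that met the same rule. A second share is over genes with a mean of 50 CPM or more, chosen after seeing the data, since most members lie at such levels. Pools of few cells give many large ratios in every gene, and counts are to be read against these shares.

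In batch 1, control gRNA cells were set against no gRNA cells. Summed over the set, no gRNA cells ran from 2494 CPM through a median of 7529 to 20460, and control gRNA cells from 5620 through 17086 to 18844. Of the 10 control gRNA cells, 8 lay above the no gRNA median and none above its highest cell, so the groups overlapped. The pooled level was 1.90 times higher in control gRNA cells (log2 ratio 0.92). Of 79 members tested, 36 were higher (45.6%) and 4 lower (5.06%), against 37.6% and 27.9% of all 10837 genes. Among the 62 members at 50 CPM or more, 28 were higher and 1 lower, where all genes gave 42.7% and 19.1%. The share higher was near that of other genes and the share lower was smaller. Microglia markers were at 11370 CPM in the control gRNA pool and 327 in the no gRNA pool, and their part in the difference was not tested.

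Subunits from several complexes were among the higher ones. Sdhd, a membrane anchor of succinate dehydrogenase, ran from 0 through 1.09 to 1199 CPM in control gRNA cells and from 0 through 0 to 247 in no gRNA cells, with pooled values of 278 and 19.1 CPM (log2 ratio 3.55). It was read in 7 of 10 against 8 of 31 cells. Ndufb7 and Ndufb11, accessory subunits of the membrane arm, had pooled levels of 308 against 47.6 and 123 against 18.2 CPM. Cyc1, the cytochrome c1 of complex III, went the other way. It ran from 0 through 0.327 to 524 CPM in control gRNA cells and from 0 through 6.91 to 2965 in no gRNA cells, at a log2 ratio of -1.28.

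Dual gRNA cells of batch 1 numbered 4 and held 22399, 6959, 11017 and 29125 CPM of the set, 2 of them above all control gRNA cells. The pooled log2 ratio to control gRNA cells was 0.29, and leaving out each of the 4 cells in turn gave -0.07 to 0.58. The day labels of these groups do not overlap, but they rise nearly cell by cell and were not used. If they are true days, day and gRNA cannot be told apart. Astrocyte markers were at 43337 CPM in dual and 16127 in control gRNA cells, and microglia markers at 5964 and 11370, and their part was not tested. Members were split: of 78, 19 were higher (24.4% of members, and 24.4% of all genes) and 24 lower (30.8%, against 61.0% of all genes). At 50 CPM or more, 18 of 63 members were higher and 15 lower, against 44.7% and 30.5% of all genes. Without the highest cell of each pool for each gene, 6 members were higher and 38 lower. That step takes out 1 of 4 dual but 1 of 10 control gRNA cells, which by itself tends to lower the ratios. The median log2 ratio moved from 0.18 to -1.71 over members and from -1.9 to -2.38 over all genes. With 4 cells, a gene is often read in only 1 or 2 of them.

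Genes at either end in the dual gRNA cells showed this patchwork. Ndufv2, an iron-sulfur core subunit of complex I, had a median of 644 CPM (3 of 4 cells) against 52.2 in control gRNA cells (6 of 10), with pooled values of 559 and 126 CPM. Ndufa12, an accessory subunit, was read in all 4 dual gRNA cells, at 202 against 44.5 CPM in the pools, and Ndufb10 was at 689 against 162. Uqcr10, a small subunit of complex III, had a log2 ratio of 1.70. At the lower end, Ndufa10 was read in 1 of 4 cells at 1.29 CPM in the pool, against 398 in control gRNA cells (8 of 10 cells). Sdhb, the iron-sulfur subunit of complex II, stood at 1.10 against 165 CPM. Ndufs6 and Ndufv3, accessory subunits, each had a single read in the pool of 4 cells.

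Batch 2 allowed dual against control gRNA at day 21. Control gRNA cells ran from 8941 through 14229 to 43428 CPM of the set, and dual gRNA cells from 7705 through 15452 to 17807. The groups overlapped, with 1 dual gRNA cell below all control gRNA cells and 2 control gRNA cells above all dual gRNA cells. The pooled log2 ratio was -0.51, it was -0.13 without the highest cell of each pool, and the ratio of the cell medians was 0.12, with the opposite sign. Of 80 members, 7 were higher (8.75%) and 27 lower (33.8%), where all genes had 32.7% and 41.7%. At 50 CPM or more the members had 6 higher and 23 lower of 70, against 29.9% and 33.2% of all genes. One control gRNA cell supplied 40.7% of that pool's member reads. Astrocyte markers were at 37121 CPM in dual and 20642 in control gRNA cells, and microglia markers at 13468 and 9594, and their part was not tested.

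Single genes followed in both directions. Cox7c, a small subunit of complex IV, was among the evenly read ones: control gRNA cells ran from 42.2 through 110 to 318 CPM and dual gRNA cells from 0 through 20 to 74.3, so the groups overlapped only at their edges, and the log2 ratio was -2.22. Uqcrc2, a core protein of complex III, was read in 3 of 8 against 4 of 7 cells, at 40.2 and 308 CPM in the pools. Ndufa10 was at 105 against 479 CPM, and Cox6a2 had 1 read in the dual gRNA pool against 75.7 CPM in the control gRNA pool. Higher in dual gRNA cells were Ndufb3 (158 against 44.1 CPM), Ndufs7 (358 against 127), Ndufa1 (90.3 against 30.9) and Atp5c1 (459 against 201), the last encoding the rotating gamma subunit of ATP synthase. Ndufs7 carries an iron-sulfur cluster next to the quinone site, and Ndufb3 and Ndufa1 are accessory subunits of complex I.

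Control gRNA cells of day 21 were also set against those of day 7, which ran from 5295 through 11720 to 22488 CPM. The pooled log2 ratio was 0.63, and 0.33 without the highest cells. Of 82 members, 28 were higher (34.1%) and 5 lower (6.10%), against 29.7% and 40.7% of all genes. Among 69 members at 50 CPM or more, 23 were higher and 1 lower, where all genes had 30.4% and 27%. Both comparisons of batch 2 use the control gRNA cells of day 21, so they are not independent. At day 7 astrocyte markers were at 25750 CPM and microglia markers at 5767, and their part was not tested either. Cox5a, a nuclear subunit of complex IV, ran from 0 through 106 to 394 CPM at day 21 and from 0 through 0.274 to 83.7 at day 7 (log2 ratio 2.42). Uqcrfs1 stood at 183 against 18.4 CPM and Cox6a2 at 75.7 against 9.90. Ndufa1 was lower at day 21, from 0 through 0 to 96.6 CPM against 0 through 214 to 927, and so were Ndufa9 (1.14 against 42.8) and the non-coding Ndufb1-ps (27.9 against 70.2).

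In batch 3, Sox9 gRNA cells of day 7 ran from 4270 through 14604 to 22913 CPM of the set, dual gRNA cells from 4415 through 12890 to 22344, and no gRNA cells from 2130 through 8428 to 11056. Of the Sox9 gRNA cells 17 of 21 lay above all 6 no gRNA cells, and of the dual gRNA cells 8 of 14. The no gRNA libraries were shallow, with a median of 236508 reads, and 1 of them gave 52.0% of that pool's member reads. Pooled log2 ratios to no gRNA were 0.73 for Sox9 gRNA and 0.53 for dual gRNA, and they share the no gRNA cells. Scaled by the median ratio of genes read in both pools instead of by all reads, they were 0.06 and -0.14, so relative to the typical gene the set was near level.

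Of 80 members, 44 were higher in Sox9 gRNA cells (55.0%) and 4 lower (5%), against 61.7% and 13.6% of all genes. For dual gRNA cells 45 were higher (56.2%) and 5 lower (6.25%), against 59.8% and 16.9%. At 50 CPM or more, Sox9 gRNA cells had 34 of 69 members higher and 4 lower (all genes 44.7% and 23.8%), and dual gRNA cells 30 of 62 higher and 5 lower (all genes 50.1% and 22.9%). The members' share of higher genes was near that of all genes. By complex, the higher members with Sox9 and dual gRNA were 22 and 23 of 38 in complex I and 3 and 4 of 4 in complex II. They were 7 and 7 of 9 in complex III, 4 and 4 of 12 in complex IV and 8 and 7 of 17 in complex V. Summed levels ran from 1.27 times no gRNA in complex V to 3.41 in complex II with Sox9 gRNA. With dual gRNA they ran from 1.14 in complex V to 3.19 in complex II. Both comparisons use the same 6 no gRNA cells, so the second does not repeat the first. Microglia markers were at 237 CPM with no gRNA, 10027 with Sox9 gRNA and 6793 with dual gRNA, and their part was not tested.

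Several genes had hardly a read in the no gRNA cells. Uqcr10 had no read in any of the 6 no gRNA cells (up to 0.910 CPM, or 3 counts over the pool, is allowed by that). It ran from 0 through 197 to 529 CPM in Sox9 gRNA cells and from 0 through 100 to 757 in dual gRNA cells, at least 200-fold and 215-fold higher in the pools. These bounds cover counting error only, the 6 libraries were shallow, and some cells of both gRNA groups also had no read. Ndufs5, an accessory subunit of complex I, had no read there either and was at least 56.1-fold and 62.0-fold higher. Cox7a2l, which helps join complexes III and IV into supercomplexes, was read in 1 of 6 no gRNA cells with 7 reads in the pool, and stood at 192 CPM with Sox9 gRNA and 163 with dual gRNA. Cyc1 had 12.1 CPM with no gRNA (3 of 6 cells), 223 with Sox9 gRNA (18 of 21) and 208 with dual gRNA (9 of 14). Uqcrc2 stood at 9.10 and 239 CPM in no gRNA and Sox9 gRNA cells. Ndufs4, an accessory subunit needed for a stable complex I, was lower with dual gRNA, at 52.5 against 190 CPM. It ran from 0 through 33.2 to 197 CPM in dual gRNA cells and from 0 through 22.8 to 300 in no gRNA cells, so the groups overlapped and the medians ran opposite to the pools.

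Between dual and Sox9 gRNA cells of batch 3 the set differed little, with a pooled log2 ratio of -0.21. Of 81 members, 1 was higher (1.23%) and 7 lower (8.64%), against 21.0% and 26.1% of all genes, and at 50 CPM or more 1 and 6 of 73, against 20.9% and 14.6%. Uqcrc2 ran from 0 through 0 to 248.6 CPM in dual gRNA cells and from 0 through 129 to 1022 in Sox9 gRNA cells (log2 ratio -1.99). Ndufs3, a core subunit of complex I, was read in 6 of 14 against 20 of 21 cells, with medians of 0 and 95.4 CPM. Ndufa9, near the quinone module, had pooled levels of 24.5 against 87.5 CPM and Ndufc1 of 33.4 against 93.3. Dual gRNA cells with titles of the series 7ST2 were read less fully than the others: their median was 37.9 members per cell after thinning to 100000 reads, against 75.7 in the series 7ST. Those 7ST2 cells alone gave -0.38 and the 7ST cells -0.03.

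In batch 4, control gRNA cells of day 21 ran from 4961 through 13711 to 22572 CPM, Sox9 gRNA cells from 2109 through 9132 to 20763, and dual gRNA cells from 6718 through 11688 to 21800. The 3 groups covered much the same range. Log2 ratios of the pools were -0.23 for Sox9 against control gRNA, -0.10 for dual against control gRNA and 0.12 for dual against Sox9 gRNA, and each pool serves in 2 of these. Scaling by the median ratio turned the dual against control value to 0.14. Erythroid markers were at 9715 CPM in Sox9 gRNA cells against 42.1 in control gRNA cells and 361 in dual gRNA cells. Astrocyte markers were at 8353 CPM in dual gRNA cells against 19782 in control gRNA cells. The part of these markers in the OXPHOS values was not tested.

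Sox9 gRNA cells had 8 of 80 members higher (10%) and 18 lower (22.5%) than control gRNA cells, against 24.3% and 38.6% of all genes. At 50 CPM or more they had 7 and 13 of 67, against 19.7% and 35.3%. Of the members tested, 4 of 13 were lower in complex IV, 5 of 16 in complex V and 7 of 38 in complex I, against 38.6% of all genes. Complex I had 7 higher, and complexes IV and V had none, against 24.3% of all genes. Ndufv2 ran from 0 through 113 to 1641 CPM in Sox9 gRNA cells and from 0 through 0 to 525 in control gRNA cells (log2 ratio 1.65). Ndufv1, the subunit that binds FMN and takes electrons from NADH, had 132 against 33.2 CPM, with medians of 0 and 0.963 the other way, and Ndufs1, the large iron-sulfur subunit beside it, had 61.4 against 16.8. Ndufa8 had 272 against 44.6 CPM. Atp5g2 was read in 7 of 16 against 10 of 15 cells, with medians of 0 and 57.0 CPM (-1.70). Ndufa9 (11.8 against 70.6 CPM), Ndufb3 (28.9 against 139) and Ndufb10 (37.2 against 140) were lower as well.

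Dual gRNA cells differed from control gRNA cells in the fewest members of any comparison with a control gRNA reference: of 81, 4 were higher (4.94%) and 5 lower (6.17%), where all genes had 19.8% and 34.9%. Of members at 50 CPM or more it was 2 and 4 of 70, against 10.6% and 33.6%. Ndufb6 ran from 0 through 11.7 to 146 CPM with dual gRNA and from 0 through 0 to 82.8 with control gRNA (log2 ratio 1.86). Ndufa7 had medians of 159 and 27 CPM, and Ndufv2 pooled levels of 154 and 70.7. Atp5g1 was lower, from 0 through 33.2 to 250 CPM against 0 through 110 to 715 (-1.09).

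Against Sox9 gRNA cells, dual gRNA cells had 15 of 80 members higher (18.8%) and 8 lower (10%), against 31.9% and 31.3% of all genes, and 12 and 7 of 66 at 50 CPM or more, against 24.5% and 29.3%. Genes that had set the Sox9 gRNA cells apart from control gRNA cells came up again, as the Sox9 gRNA pool is shared. Ndufa9 stood at 101 against 11.8 CPM, Ndufb10 at 223 against 37.2 and Atp5g2 at 84.1 against 18.2. Cox6a2 had 78.4 against 11 CPM, with a median of 0 in both pools and a highest cell of 1055. Ndufs1 (8.96 against 61.4 CPM), Ndufv1 (24.8 against 132), Ndufc1 (60.2 against 252) and Ndufa11 (67.1 against 196) were lower with dual gRNA as pools. Cell medians ran the other way for Ndufs1 (0.775 against 0.349 CPM) and Ndufv1 (0.648 against 0). The day 7 cells labelled Trps1 gRNA, for which this batch has no other day 7 group, held 15791 CPM and ran from 4382 through 15596 to 23493. Both libraries of the near-identical pair of this batch are among these cells and count in these values.

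In batch 5, no gRNA cells ran from 372 through 12272 to 27794 CPM of the set, Sox9 gRNA cells of day 21 from 4648 through 12037 to 15264, and Trps1 gRNA cells from 6586 through 15145 to 38214. Above all Sox9 gRNA cells lay 6 of 23 no gRNA cells and 14 of 30 Trps1 gRNA cells, and the 3 groups overlapped. Log2 ratios of the pools to no gRNA were -0.25 for Sox9 gRNA and 0.38 for Trps1 gRNA, and Trps1 against Sox9 gRNA was 0.63. Microglia markers were at 275 CPM with no gRNA, 10541 with Sox9 gRNA and 9078 with Trps1 gRNA.

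Sox9 gRNA cells had none of 79 members higher and 6 lower (7.59%), against 23.7% and 19.1% of all genes, and at 50 CPM or more none and 6 of 69, against 19.1% and 10.5%. Cox5b, a zinc-binding subunit of complex IV, ran from 0 through 92.6 to 279 CPM with Sox9 gRNA and from 1.21 through 183 to 628 with no gRNA (log2 ratio -1.17). Ndufa4 ran from 0 through 93.0 to 261 CPM against 0 through 183 to 444 (-1.15). Ndufb11 was read in 10 of 21 against 20 of 23 cells at 39.8 and 115 CPM, and Ndufs6 in 10 of 21 against 15 of 23 at 44.3 and 113 CPM. None of these 4 genes reached a log2 ratio of 1 in size against the no gRNA cells titled AG alone, where Cox5b was at 152 CPM (-0.49), Ndufa4 at 118 (-0.42), Ndufb11 at 78.0 (-0.89) and Ndufs6 at 39.9 (0.13, the other direction). Against the other series, titled 2AG, they gave -1.56, -1.56, -1.75 and -1.85.

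Trps1 gRNA cells had 12 of 80 members higher (15%) and none lower than no gRNA cells, against 29.3% and 13.3% of all genes. Among those at 50 CPM or more it was 10 of 73 and none, against 27.1% and 7.37%. Ndufs5 ran from 0 through 54.1 to 291 CPM with Trps1 gRNA (28 of 30 cells) and from 0 through 7.29 to 183 with no gRNA (16 of 23), at a log2 ratio of 1.51. Uqcrb, a subunit of complex III that binds near ubiquinone, ran from 0 through 54.9 to 373 CPM against 0 through 2.51 to 112 (1.53). Ndufb6 had pooled levels of 123 and 37.1 CPM. Atp5s, a factor B-like protein, had 68.1 against 6.42 CPM with medians of 0 in both pools, so a minority of cells held its reads. Against 2AG cells alone Uqcrb gave 0.97, below the threshold, and in the Trps1 gRNA cells titled 21T alone Uqcrb gave 0.87 and Ndufb6, at 31.2 CPM, gave -0.22.

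Trps1 against Sox9 gRNA cells gave 26 of 80 members higher (32.5%) and none lower, against 27% and 15% of all genes. At 50 CPM or more, 24 of 74 members were higher and none lower, against 20.1% and 8.48%. By complex, the higher members were 15 of 38 in complex I, 1 of 4 in complex II, 3 of 9 in complex III, 1 of 12 in complex IV and 6 of 17 in complex V. Ndufa5, an accessory subunit, ran from 0 through 116 to 364 CPM with Trps1 gRNA and from 0 through 33.9 to 181 with Sox9 gRNA (log2 ratio 1.80), and was read in 25 of 30 against 11 of 21 cells. Ndufa2 had 490 against 123 CPM with medians of 244 and 101, and its highest Trps1 gRNA cell stood at 6807. Ndufb6 was at 123 against 28.4 CPM and Atp5s at 68.1 against 10.2. In the series 21T alone, Ndufa2 was at 115 CPM (log2 ratio -0.099), Ndufb6 at 31.2 (0.11) and Ndufa5 at 60.8 (0.50), all short of the threshold, and Atp5s at 105 (2.86). All 3 comparisons of batch 5 share pools with each other.

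**Figure D4:**
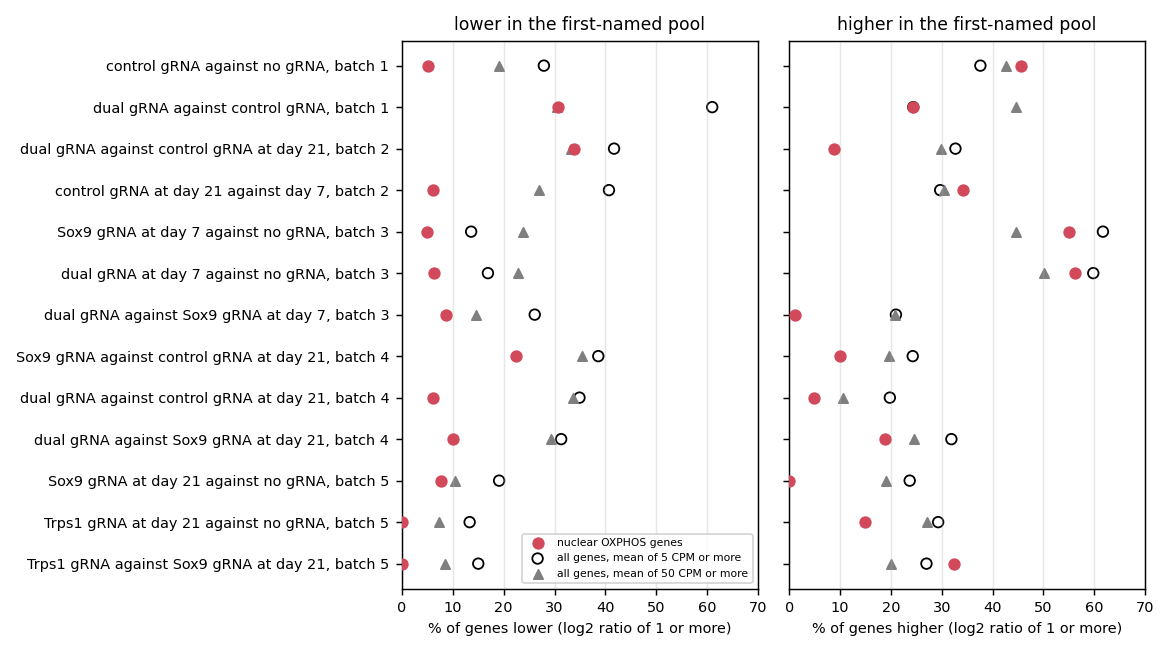
Percent of genes past a log2 ratio of 1 in each of 13 comparisons, lower on the left and higher on the right: filled points are the nuclear OXPHOS genes, open circles all genes at a mean of 5 CPM or more and triangles all genes at 50 CPM or more. Against the open circles, the members' percent of lower genes is smaller in every row, and their percent of higher genes is larger for control against no gRNA in batch 1, control gRNA by day in batch 2 and Trps1 against Sox9 gRNA in batch 5.

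The cells of a pool fell into series of sample titles, and in batch 5 the series differed by more than the labelled groups. No gRNA cells titled AG ran from 372 through 8157 to 12587 CPM of the set (n = 11), and those titled 2AG from 11706 through 15365 to 27794 (n = 12). The groups overlapped only between 11706 and 12587 CPM, and the pooled levels were 8322 and 18282 CPM. Of 79 members tested between these 2 series, 50 were higher in 2AG (63.3%) and none lower, against 42.7% and 15.8% of all genes. Ndufc1 stood at 104 CPM in 2AG (12 of 12 cells) and 4.77 in AG (2 of 11), Uqcrfs1 at 222 against 20.1, Atp5h, a subunit of the stalk of ATP synthase, at 224 against 37.9, and Ndufs7 at 264 against 52.7. Those 4 were picked after their values were seen. Median depths were alike at 803313 reads in AG and 812287 in 2AG, while 2AG cells had a median of 6597 genes with a read and AG cells 4112. Neuron markers summed to 5521 CPM in 2AG and 2101 in AG, microglia markers to 346 and 190, and astrocyte markers to 36286 and 32369, and their part in the difference was not tested.

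Which series served as reference set the sign of the batch 5 comparisons. Against AG cells alone the log2 ratio was 0.48 for Sox9 gRNA and 1.11 for Trps1 gRNA. Against 2AG cells alone it was -0.66 and -0.03. Trps1 gRNA cells of the series 21T, 21T2 and 21T3 held 12272, 18883 and 19494 CPM, and the 21T cells alone gave -0.17 against no gRNA and 0.08 against Sox9 gRNA. Batch 3 no gRNA cells also carry AG titles, and at 8683 CPM they were close to the AG cells of batch 5 (8322). Some AG titles carry the same number in both batches. Libraries were not compared between batches, so whether these are the same cells was not examined. What the series stand for is not given in the labels.

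**Figure D5:**
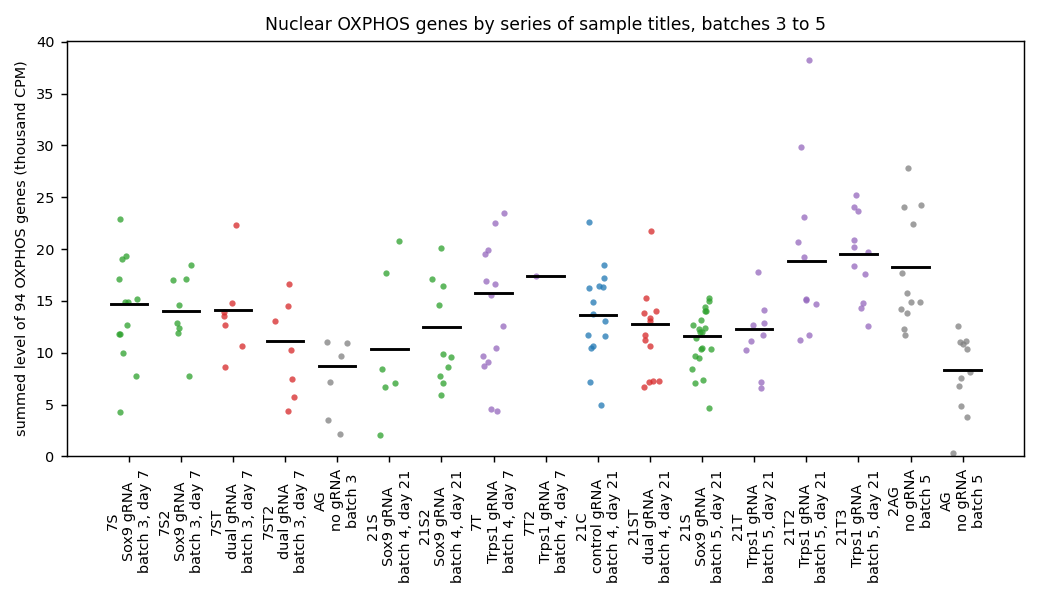
Summed level of the 94 genes per library (points) and per series of sample titles (bars), in units of 1000 CPM, for the astrocytes of batches 3 to 5, coloured by gRNA label. AG cells lie low in batches 3 and 5, 2AG cells lie high, and Trps1 gRNA series 21T lies below 21T2 and 21T3.

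The number of members read per cell was compared after thinning each cell to 100000 reads, with shallower cells left out. Medians ran from 29.8 members in batch 1 no gRNA cells (31 cells) to 69.2 in batch 3 Sox9 gRNA cells (21 cells). In batch 1, control gRNA cells had 47.6 and dual gRNA cells 34.4. In batch 4, control, Sox9 and dual gRNA cells of day 21 had 59.8, 40.3 and 47.6, and in batch 5 no gRNA, Sox9 and Trps1 gRNA cells had 62.3, 53.2 and 65.2. Only 3 of the 6 batch 3 no gRNA cells were deep enough, at a median of 57.8. Unthinned medians kept batch 1 no gRNA cells low, at 42.0 members, with 58.0 in control gRNA cells.

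Transcripts of the 13 protein genes of the mitochondrial genome, the partners of these subunits in complexes I, III, IV and V, did not keep a fixed ratio to the set. Per read of the 94 nuclear genes there were 0.731 to 2.83 reads of mitochondrial protein genes in astrocyte pools, lowest in batch 3 no gRNA cells and highest in batch 2 dual gRNA cells. Single cells spread from 0.00541 to 17.4. The in-slice controls of batches 3 and 5 had 4.50 and 2.45, above every cell pool of their batch, while those of batch 4 had 1.09, below the 2.1 of dual gRNA cells, and that of batch 2 had 2.39, below the 2.83 of dual gRNA cells. Dual gRNA cells of batch 4 had 2.1 against 0.997 in control gRNA cells as pools, with cell medians of 0.986 and 0.827 and a highest dual gRNA cell of 14.1, although their nuclear set was at 12736 and 13687 CPM.

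Neighbouring pathways were described by lists. The shares of all genes higher and lower in the 4 comparisons used were 37.6% and 27.9%, 61.7% and 13.6%, 19.8% and 34.9%, and 29.3% and 13.3%, and nothing particular to a list is read from counts near these. Of the 44 OXPHOS assembly factors, 36 were tested between control and no gRNA cells of batch 1 (12 higher, 10 lower), 36 between Sox9 and no gRNA of batch 3 (26 and 1), 32 between dual and control gRNA of batch 4 (8 and 8) and 40 between Trps1 and no gRNA of batch 5 (7 and 6). Mobile carriers and NADH shuttle genes had 5 higher and 2 lower of 15, 8 and 4 of 16, 2 and 4 of 16, and 2 and 0 of 16 in the same comparisons. Of 13 regulators of mitochondrial biogenesis, at most 11 were tested: 2 and 2 of 9, 6 and 1 of 9, 1 and 2 of 6, and 1 and 3 of 11. The TCA cycle and pyruvate dehydrogenase genes, which feed the chain with NADH and succinate, had 5 and 4 of 20, 10 and 1 of 20, 3 and 8 of 20, and 1 and 3 of 20. Glycolysis and lactate genes had 9 and 4, 10 and 1, 3 and 5, and 4 and 2 of 20 each. Their summed level in batch 5 was 15837 CPM in Trps1 gRNA cells, 9715 in no gRNA cells and 9490 in Sox9 gRNA cells, and it was not split by title series. Beside the counts of these lists, the members' median log2 ratios in these 4 comparisons were 0.92, 1.28, -0.16 and 0.35, and those of all genes 0.30, 1.62, -0.33 and 0.39.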

How the data were processed

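The authors deposited 5 tables, 1 per batch, of raw counts with genes as rows and libraries as columns. Per the submitters' processing notes the builds were GRCm38 and mm10 and the tools RSEM 1.3.0 and STAR 2.6.0a, with no role stated; the sources used here do not give the handling of strand. Of 289 samples, 254 had a column (242 astrocytes, 12 in-slice controls), and every column had a sample. The other 35, all of batch 4, were not analysed here. They include all Trps1 gRNA cells of day 21 in that batch. Rows naming no gene, left out of all totals, held 75.6% of counts in batch 1, 22.3% in batch 2 and under 1% elsewhere. Symbols came from the supplied name table, and lengths and positions from GENCODE vM21.

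Counts were summed over the cells of a pool and scaled to CPM (Python 3, pandas, numpy, scipy). Log2 ratios had a pseudocount of 5 CPM, a minimum mean of 5 CPM and a threshold of 1; intervals are exact Poisson at 95%, and 3 counts set the floor. Genes were named for a comparison at 20 CPM or more, a read in 40% or more of the higher pool's cells and a log2 ratio of 1 or more with and without the highest cell, up to 4 each way; isoforms, complex II and core subunits were listed for naming whatever their values. The ratio code was tested on simulated data. Members, gene lists (assembly factors, carriers, biogenesis, TCA cycle, glycolysis, mitochondrial genome, and markers of 8 cell types) and rules were chosen with earlier results of these data known. Alternatives were the highest cells left out, means and medians of cells, median ratio scaling, single title series, pseudocount 1, no filter and no thinning. Values of 1 member are not reported here by name or in the plots of single genes; it stays in all sums and counts.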

Additional observations from a re-analysis of the deposited data

Results flagged for a closer look

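In groups of 4 to 10 libraries, 48 checks (6 measures in 8 groups) asked whether the highest or lowest library stood far from the others by Dixon's criterion, which chance passes in about 1 in 20 groups, and 6 did. Of the 7 control gRNA cells of batch 2 at day 21, 1 library held 43428 CPM of the 94 genes, where the next held 18885. The same library stood apart for complex I (16017 CPM, next 7066), complex III (7056, next 2986) and complex V (12297, next 4095). Complex II stood apart in 1 of the 8 control gRNA cells of batch 2 at day 7, with 4119 CPM where the next held 1520. In the 4 dual gRNA cells of batch 1, complex II was at 1703 CPM in 1 cell and at 40.3 CPM in the next. Batch 2 comparisons that use the day 21 control gRNA cells, and the batch 1 dual gRNA comparison, rest on these pools.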

How the results depend on the processing

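Values are log2 ratios of the summed level. No paired analysis was possible because cell numbers follow accession order only and no label names an animal. The title series and near-identical libraries were examined after seeing the data, and the cause of any shift was not tested. Control against no gRNA in batch 1 (0.92) was 0.97 without the highest cells, 0.88 by the mean of cells, 1.18 by their median and 0.62 by median ratio scaling. In the same order of alternatives, dual against control gRNA in batch 1 (0.29) gave -0.035, 0.24, -0.032 and -0.66, and -0.068 to 0.58 leaving out each dual gRNA cell. Dual against control gRNA in batch 2 (-0.51) gave -0.13, -0.38, 0.12 and -0.24, and day 21 against day 7 (0.63) gave 0.33, 0.57, 0.28 and 0.38. In batch 3, Sox9 against no gRNA (0.73) gave 0.83, 0.92, 0.79 and 0.056, with 0.76 for series 7S and 0.70 for 7S2. Dual against no gRNA (0.53) gave 0.62, 0.70, 0.61 and -0.14, with 0.70 for 7ST and 0.35 for 7ST2. Dual against Sox9 gRNA (-0.21) gave -0.21, -0.21, -0.18 and -0.18, with -0.033 for 7ST, -0.38 for 7ST2, -0.23 for 7S and -0.17 for 7S2. In batch 4, Sox9 against control gRNA (-0.23) gave -0.29, -0.28, -0.59 and -0.028, with -0.40 for 21S and -0.14 for 21S2. Dual against control gRNA (-0.10) gave -0.19, -0.22, -0.23 and 0.14. Dual against Sox9 gRNA (0.12) gave 0.096, 0.068, 0.36 and 0.17, with 0.30 for 21S and 0.032 for 21S2. In batch 5, Sox9 against no gRNA (-0.25) gave -0.22, -0.22, -0.028 and -0.32, with -0.66 against 2AG, 0.48 against AG and -0.24 with the near-identical library counted once. Trps1 against no gRNA (0.38) gave 0.42, 0.39, 0.30 and 0.024, with -0.17 for 21T, 0.46 for 21T2, 0.50 for 21T3, -0.030 against 2AG, 1.11 against AG and 0.39 counted once. Trps1 against Sox9 gRNA (0.63) gave 0.63, 0.61, 0.33 and 0.38, with 0.082 for 21T, 0.70 for 21T2 and 0.75 for 21T3.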
